A study of Mus musculus with 4 samples.

Results

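The PGC-1 coactivators and the regulators of mitochondrial biogenesis that work with them were examined as a set of 10 genes, namely Ppargc1a, Ppargc1b, Esrra, Esrrg, Ppara, Ppard, Nrf1, Gabpa, Tfam and Tfb2m. They were taken by gene symbol from the deposited expression workbook, which names 20193 genes, and each of the 10 had 1 probe set there. The cells were C2C12, mouse myoblasts able to fuse into myotubes, kept in growth medium with serum and transfected by lipid reagent. The empty vector group carried the plasmid pcDNA3.1/Zeo(+), and the polyclonal line carried Myolinc, a long noncoding RNA, in that same plasmid. Both were selected with Zeocin. Total RNA from each group went onto 2 Affymetrix arrays, 4 in all. The labels call the arrays of a group biological replicates and name no separate transfection or selection, so the selected line and its plasmid cannot be told apart. The p-values therefore reflect array-to-array spread alone, and that spread may be technical. In such bulk RNA, fewer cells of a type and less RNA per cell cannot be told apart.

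PGC-1alpha, encoded by Ppargc1a, and PGC-1beta, encoded by Ppargc1b, bind to transcription factors and raise the expression of genes for mitochondria and fuel oxidation. In muscle their partners include the oestrogen-related receptors and the peroxisome proliferator-activated receptors (PPARs). They also work with NRF1 and the GABP complex, which act on nuclear genes of respiration, among them the genes for the mitochondrial transcription factors TFAM and TFB2M. Those proteins enter mitochondria and serve the copying and transcription of mitochondrial DNA.

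Values are log2 expression values from RMA, in which 1 unit is a 2-fold difference, and the median over the 28940 probe sets tested was 7.27. Array medians lay between 7.24 and 7.35, and with 4 arrays in all the precision of each difference is limited. All 6 myoblast markers stood at or above the median level, with the adhesion gene Cdh15 rising by 0.49. Their summed level, on the log2 scale, ran from 15.05 to 15.06 in empty vector cells and from 15.17 to 15.19 in the Myolinc line. Of 7 adipocyte markers, 1 stood at or above the median level, 1 rose (Lpl, a lipoprotein lipase, by 1.57) and 6 did not pass. Their summed level ran from 9.18 to 9.38 and from 9.53 to 9.61, and it includes Lpl (mean 6.10 and then 7.67). Of the 7, 3 had a positive and 4 a negative log2 fold change, and the list median was -0.01. Of the 6 myotube markers Tnnt3 rose (0.61) and Acta1 fell (-0.73), and 3 had a positive and 3 a negative log2 fold change. Their summed level ran from 10.87 to 10.98 and then stood at 10.69 in both Myolinc arrays. That sum adds linear values, so Acta1, the most abundant of them (mean 10.28 and then 9.55), weighs most in it. None of the 4 brown adipocyte, 5 endothelial and 4 proliferation markers passed in limma, and at an unadjusted p under 0.05 1 brown adipocyte marker was lower. Of 5 macrophage and leukocyte markers Cd68 fell (-0.46). The part of these markers in the results below was not tested.

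The comparison asked which of the 10 genes differed between the Myolinc line and empty vector cells. Both coactivator genes rose and the other 8 genes did not pass. At an adjusted p under 0.05 (limma, Benjamini-Hochberg over the 28940 probe sets), 2 of the 10 rose, where 3.97% of all named genes rose. None of the 10 fell, where 3.97% of all named genes fell, and at an unadjusted p under 0.05 the counts were 4 higher and 0 lower in limma, where 13.0% of all named genes were higher and 13.6% lower. An ordinary linear model called 0 of them in either direction, as it called 0 of all named genes. At an unadjusted p under 0.05 that model had 3 of the 10 higher and 0 lower. The median log2 fold change of the 10 genes was 0.15, and that of all named genes was 0.02.

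Ppargc1a, whose product is the coactivator induced in muscle by exercise and in brown fat by cold, read 5.89 and 6.12 on the empty vector arrays and 7.25 and 7.42 on the Myolinc arrays. Both Myolinc arrays were higher than both empty vector arrays by more than 1 log2 unit. The mean went from 6.01 ± 0.16 to 7.34 ± 0.12 (SD, n = 2 per group), a log2 fold change of 1.33 (SE 0.11, adjusted p = 0.0196, limma). That is 2.51-fold higher in the Myolinc line as read. The Myolinc reading of 7.25 lies under the median of 7.27. Both empty vector readings lie under it too, and within the range of the 5 endothelial markers, 4.44 to 6.71. Whether they stand above background was not tested, so the fold rests on a baseline that may be background.

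Ppargc1b, whose product is the second coactivator and is abundant in oxidative tissues, read 7.89 and 7.91 on the empty vector arrays and 8.43 and 8.50 on the Myolinc arrays. The groups were again apart, by far more than the distance between arrays of a group. The mean went from 7.90 ± 0.02 to 8.47 ± 0.05 (SD, n = 2 per group), a log2 fold change of 0.56 (SE 0.06, adjusted p = 0.0267, limma), which is 1.48-fold (95% interval 1.32 to 1.66). Pprc1, the third gene of the PGC-1 family and not among the 10, read 9.71 and 9.69 and then 9.36 and 9.42 (log2 fold change -0.31, SE 0.06, adjusted p = 0.0657), lower on both Myolinc arrays without passing.

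**Figure D1:**
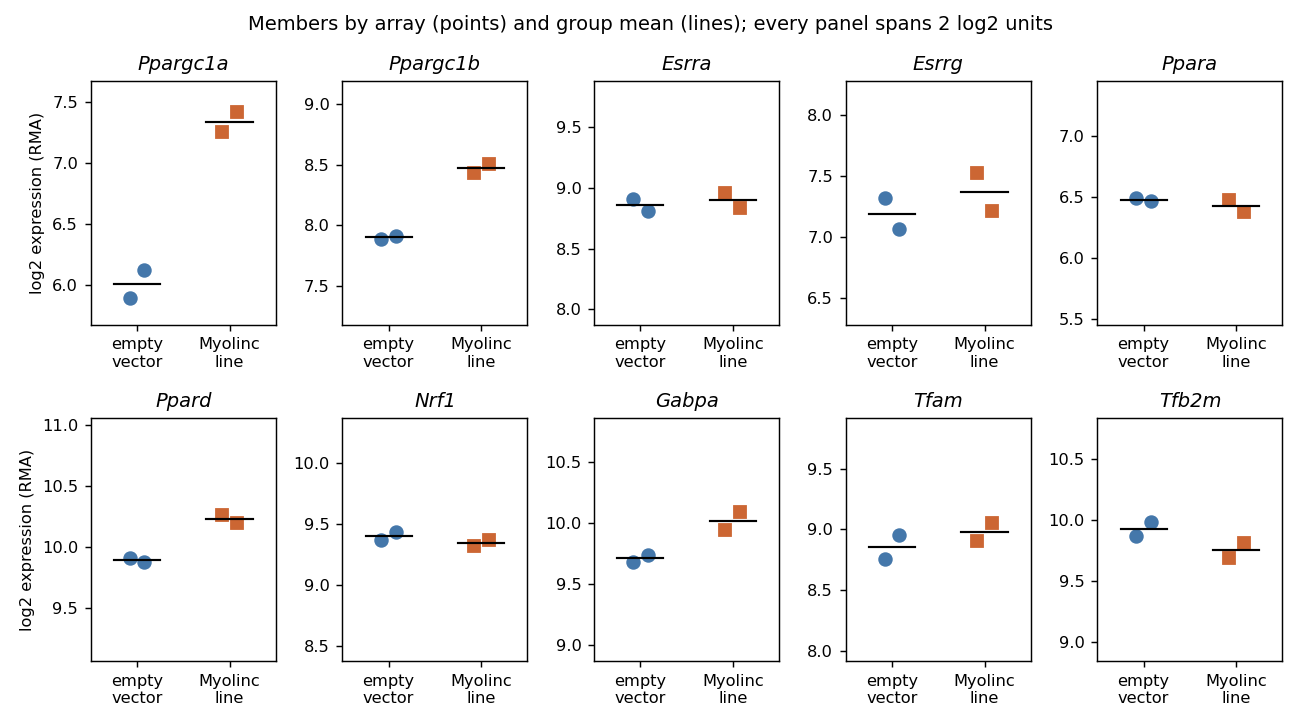
Log2 expression (RMA) of each of the 10 genes on the 4 arrays, empty vector as circles and the Myolinc line as squares, with the group mean as a line and 2 log2 units in every panel. Ppargc1a moves from a mean of 6.01 to 7.34 and Ppargc1b from 7.90 to 8.47, while Esrra and Nrf1 stay within 0.06 of their empty vector means.

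The RefSeq promoter window of Ppargc1a, the gene with the largest change of the 10, is given because this gene carries the main result. A window runs from 250 bases before to 50 bases after the start of a transcript. Windows were found for 9 of the 10 genes, all but Ppargc1b. They were searched on both strands for the oestrogen-related receptor element TCAAGGTCA, the NRF1 core GCGCATGCG, the GABP core CCGGAAG and, added after the values were seen, the half-site TGACG of the CREB element. In the window of Ppargc1a (GRCm38.p6, chr5:51567676-51567975, minus strand, 5′ to 3′) the capitals mark 1 half-site of the CREB element on the opposite strand, at bases 202 onward.
Ppargc1a: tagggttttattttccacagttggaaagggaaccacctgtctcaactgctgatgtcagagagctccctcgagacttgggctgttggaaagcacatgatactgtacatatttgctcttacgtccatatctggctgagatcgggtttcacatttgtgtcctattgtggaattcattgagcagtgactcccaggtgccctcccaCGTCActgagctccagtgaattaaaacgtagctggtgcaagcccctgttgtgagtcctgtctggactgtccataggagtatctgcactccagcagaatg
The half-site was present in 20.8% of the 32851 promoter windows, and none of the other 3 motifs was in this window.

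The oestrogen-related receptors are orphan nuclear receptors through which PGC-1 proteins reach many genes of respiration. Esrra, for the alpha form, read 8.90 and 8.81 on the empty vector arrays and 8.96 and 8.83 on the Myolinc arrays, and the groups overlapped. Its log2 fold change was 0.04 (95% interval -0.17 to 0.25, adjusted p = 0.840, limma). Its sign turned under 4 of the other settings, with values from -0.001 to -0.022. Esrrg, for the gamma form found in oxidative muscle and heart, read 7.32 and 7.06 and then 7.52 and 7.21, also overlapping. In each group its arrays lay further apart than those of any other of the 10 genes, and its log2 fold change of 0.18 had an interval from -0.24 to 0.59 (adjusted p = 0.584). Esrrb, the related receptor of early embryo cells, had 0.06 (SE 0.14, adjusted p = 0.856).

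The PPARs bind fatty acids and act on genes of fat oxidation. Ppard, for the delta form that prevails in skeletal muscle, read 9.91 and 9.88 on the empty vector arrays and 10.27 and 10.20 on the Myolinc arrays. The groups did not overlap, and the log2 fold change of 0.34 (SE 0.06, 95% interval 0.17 to 0.51) did not pass (adjusted p = 0.0609, limma). Across the other settings its adjusted p ran from 0.00341, under a variance model with trend and robust estimation, to 0.307. It also passed when probe sets below the median level were dropped (0.00744) and when the workbook's genes alone were fitted (0.0373). Ppara, for the alpha form best known from liver, read 6.49 and 6.46 and then 6.47 and 6.37. Its groups overlapped below the median level over probe sets, with a log2 fold change of -0.05 (95% interval -0.23 to 0.13). Pparg, for the receptor of fat cell formation, had 0.20 (SE 0.06, adjusted p = 0.140), and Rxra, for a retinoid receptor that pairs with PPARs, had 0.25 (SE 0.07, adjusted p = 0.124).

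Nuclear genes of the respiratory chain are bound by NRF1 and by GABP, a complex of an alpha subunit that contacts DNA and a beta subunit that activates. Nrf1 read 9.37 and 9.44 on the empty vector arrays and 9.32 and 9.37 on the Myolinc arrays, overlapping, with a log2 fold change of -0.06 (95% interval -0.23 to 0.12, adjusted p = 0.693, limma). Gabpa, for the alpha subunit, read 9.68 and 9.74 and then 9.95 and 10.09. Both Myolinc arrays were higher, but the log2 fold change of 0.31 (SE 0.08, 95% interval 0.10 to 0.52) did not pass (adjusted p = 0.108). It passed in 2 of 15 other fits, the one with trend and robust estimation (0.0132) and the one without probe sets below the median level (0.0199), and its adjusted p reached 0.354 in the others. The beta subunit genes moved the other way without passing. Gabpb2 had a log2 fold change of -0.44 (SE 0.08, adjusted p = 0.0523) and Gabpb1 of -0.25 (SE 0.08, adjusted p = 0.162).

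The genes downstream of NRF1 and GABP in the chain came next. Tfam is the gene for the protein that packs mitochondrial DNA and serves its transcription. It read 8.76 and 8.95 on the empty vector arrays and 8.90 and 9.05 on the Myolinc arrays. The groups overlapped, and the log2 fold change was 0.12 (95% interval -0.16 to 0.40, adjusted p = 0.584, limma). Tfb2m, for a factor that opens mitochondrial promoters, read 9.88 and 9.99 and then 9.69 and 9.82, lower on both Myolinc arrays. Its log2 fold change of -0.18 (95% interval -0.40 to 0.04) did not pass (adjusted p = 0.293). The number of the Tfb2m probe set stood among those of chromosome 12 genes, which made up 18 of its 18 placed neighbours by number, while RefSeq puts Tfb2m on chromosome 1. For the other 9 genes the commonest chromosome among the neighbours was the gene's own. Whether the Tfb2m probe set reads that gene or a like sequence elsewhere was not tested.

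The windows of Gabpa, Tfam and Tfb2m are given because they hold the GABP or NRF1 motif. In GRCm38.p6, capitals mark the GABP core on the opposite strand in Gabpa (chr16:84834874-84835173, plus strand), the GABP core in Tfam (chr10:71237995-71238294, minus strand) and the NRF1 core on the opposite strand in Tfb2m (chr1:179546227-179546526, minus strand), all 5′ to 3′.
Gabpa: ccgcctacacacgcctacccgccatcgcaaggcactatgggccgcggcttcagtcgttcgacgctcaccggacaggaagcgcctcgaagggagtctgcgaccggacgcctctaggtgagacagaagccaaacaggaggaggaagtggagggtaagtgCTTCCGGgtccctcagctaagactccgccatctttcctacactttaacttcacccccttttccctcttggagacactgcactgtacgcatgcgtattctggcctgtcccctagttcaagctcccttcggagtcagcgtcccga
Tfam: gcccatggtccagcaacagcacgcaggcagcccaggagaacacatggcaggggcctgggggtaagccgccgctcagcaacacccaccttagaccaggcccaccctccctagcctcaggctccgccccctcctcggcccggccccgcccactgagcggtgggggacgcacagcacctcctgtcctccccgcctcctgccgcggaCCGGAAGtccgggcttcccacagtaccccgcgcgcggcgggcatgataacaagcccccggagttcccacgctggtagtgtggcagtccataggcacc
Tfb2m: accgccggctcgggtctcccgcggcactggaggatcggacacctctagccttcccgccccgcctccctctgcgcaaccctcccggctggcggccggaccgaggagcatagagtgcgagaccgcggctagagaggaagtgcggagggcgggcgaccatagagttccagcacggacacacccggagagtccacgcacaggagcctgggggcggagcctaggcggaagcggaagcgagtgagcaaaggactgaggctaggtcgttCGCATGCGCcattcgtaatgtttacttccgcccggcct
The GABP core was in 8.86% of all 32851 windows, the NRF1 core in 1.75% and the oestrogen-related receptor element in 0.423%. Of the other genes Ppara held the NRF1 core, read on both strands at overlapping positions, and 1 half-site of the CREB element, and Ppard held 1 such half-site. These matches are descriptions of the letters.

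Expressed genes differed between chromosomes in their median log2 fold change, among autosomes from -0.145 on chromosome 2 to 0.155 on chromosome 16, so each of the 10 was set beside the genes of its own chromosome. That median was 0.018 on chromosome 5, which carries Ppargc1a, and 0 on chromosome 18, which carries Ppargc1b. Chromosome 16 carries Gabpa, and on chromosome 10, which carries Tfam, the median was 0.085. With the chromosome medians removed before the fit, Ppargc1a passed (adjusted p = 0.0218) and Ppargc1b passed (0.0285), whereas Gabpa had a log2 fold change of 0.15 (adjusted p = 0.333). The 20 nearest expressed genes around Ppargc1a had a median of 0.13 and those around Ppargc1b of -0.0024. Around Gabpa the median was 0.07, with 3 of 20 genes rising and 1 falling.

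**Figure D2:**
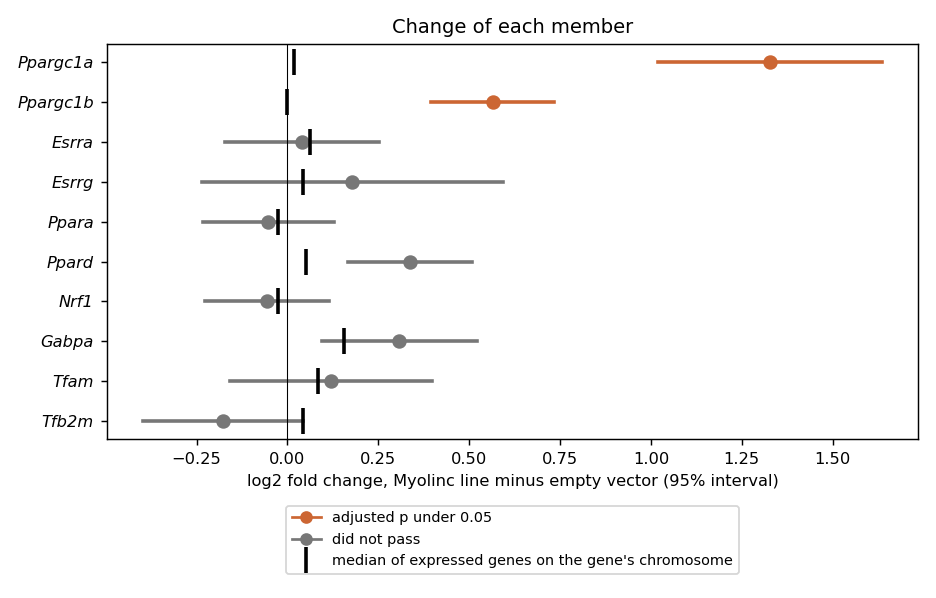
Log2 fold change of each gene, the Myolinc line minus empty vector, with its 95% interval from limma. Vertical ticks give the median of the expressed genes of the same chromosome. Ppargc1a at 1.33 and Ppargc1b at 0.56 pass, the intervals of Ppard and Gabpa lie above 0 without passing, and the intervals of the other 6 genes cross 0.

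Of all 10 genes, 4 had both Myolinc arrays above both empty vector arrays, where 27.9% of named genes did. Tfb2m had both below, where 26.0% of named genes did. The groups of the remaining 5 overlapped.

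Genes that act with or on these regulators were taken from lists, 8 in all, with 158 of 174 genes measured. Of the 158, 8 rose and 8 fell, and 142 did not pass. Their median log2 fold change was -0.02, beside 0.02 for all named genes. Beside the 3.97% of named genes that passed in each direction, these counts are near the background. With arrays centred on their medians the split was 3 that rose against 7 that fell, and with further quantile normalization 8 against 12. With chromosome medians removed 4 rose and 5 fell, and Slc27a1, Hadha, Cpt1a, Cox17, Tomm34, Sco1 and Atp5o no longer passed. With the probe sets of the lowest numbers kept in the fit, 0 rose and 3 fell (Mybbp1a, Pdk4 and Bnip3).

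Among 26 measured regulators of PGC-1alpha, 2 fell and 0 rose, with 9 lower and 2 higher at an unadjusted p under 0.05 in limma (13.6% and 13.0% of all named genes). Prkaa2, the alpha2 catalytic subunit of the energy sensor AMPK, which phosphorylates PGC-1alpha, read 8.54 and 8.68 on the empty vector arrays and 7.25 and 6.59 on the Myolinc arrays. Both Myolinc arrays were lower by more than 1 log2 unit, and they differed from each other by more than the empty vector arrays did. The gene fell by 1.69 on the log2 scale (SE 0.24, adjusted p = 0.0380), 3.23-fold lower in the Myolinc line as read. Both Myolinc readings lie under the median of 7.27, and the lower one within the range of the endothelial markers, 4.44 to 6.71. Whether they stand above background was not tested. Kat2a, for the acetyltransferase GCN5, which dampens PGC-1alpha by acetylating it, fell by 0.52 (SE 0.06, adjusted p = 0.0285). Atf2, for a factor that acts on the Ppargc1a promoter, had -0.33 (SE 0.07, adjusted p = 0.0732). The other AMPK catalytic subunit gene Prkaa1 had -0.17 (adjusted p = 0.197) and the deacetylase gene Sirt1 had -0.09 (adjusted p = 0.498).

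Of 21 measured receptors, coregulators and other partners, 1 fell and 0 rose, with 7 lower and 2 higher at an unadjusted p under 0.05 in limma, beside the same shares of 13.6% and 13.0%. Mybbp1a, for a nucleolar protein that binds PGC-1alpha and represses it, read 11.81 and 11.79 on the empty vector arrays and 11.04 and 10.98 on the Myolinc arrays. It fell by 0.79 (SE 0.06, adjusted p = 0.0176), with the groups far apart. The corepressor gene Ncor1 had -0.34 (adjusted p = 0.0794).

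None of 16 measured genes for copying and transcription of mitochondrial DNA passed in limma, with 7 lower and 0 higher at an unadjusted p under 0.05, where 13.6% of all named genes were lower. With trend and robust estimation 6 of them were called lower, where 11.3% of all named genes were. An ordinary linear model called 0 of them, and 0 of all named genes. A negative log2 fold change was found for 15 of the 16, and for 9124 of the 20193 named genes. The list median was -0.18. The tRNA-processing gene Elac2 had -0.35 (SE 0.06, adjusted p = 0.0597), the exonuclease gene Mgme1, listed as 8430406I07Rik, had -0.41 (SE 0.08, adjusted p = 0.0682) and Polg, for the mitochondrial DNA polymerase, had -0.30 (SE 0.06, adjusted p = 0.0728). Polrmt, for the mitochondrial RNA polymerase that TFAM and TFB2M recruit, had -0.0082 (SE 0.07).

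Fatty acid oxidation genes under PPAR and oestrogen-related receptor control held 7 of the 16 pathway genes that passed. Of 31 measured, 5 rose, 2 fell and 24 did not pass, with a list median of 0.05. Of all named genes 3.97% rose and 3.97% fell. With arrays centred on their medians 1 rose and 2 fell, so the balance of rises over falls among calls did not hold under that scaling. At an unadjusted p under 0.05 in limma 11 were higher and 4 lower, where 13.0% and 13.6% of all named genes were. With centred arrays those counts of the list were 6 and 4. Fabp3, the fatty acid binding protein of muscle, read 7.63 and 7.64 on the empty vector arrays and 8.27 and 8.26 on the Myolinc arrays, and rose by 0.63 (SE 0.06, adjusted p = 0.0208). Acaa2, the thiolase that ends a round of beta-oxidation, rose by 0.53 (SE 0.08, adjusted p = 0.0434), and Hadha, a subunit of the trifunctional enzyme, by 0.38 (SE 0.06, adjusted p = 0.0437). Ucp2, for an inner membrane carrier, rose by 0.46 (SE 0.06, adjusted p = 0.0321). Cpt1a, for the enzyme that admits long-chain fatty acids to mitochondria, rose by 0.36 (SE 0.06, adjusted p = 0.0454).

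The same list held falls. Pdk4, the kinase that shuts off pyruvate dehydrogenase, read 10.83 and 10.85 on the empty vector arrays and 10.01 and 9.96 on the Myolinc arrays. It fell by 0.86 (SE 0.06, adjusted p = 0.0149), so this target of PPAR and oestrogen-related receptors stood lower while Fabp3 and Cpt1a stood higher. Slc27a1, a fatty acid transporter gene, fell by 0.49 (SE 0.07, adjusted p = 0.0359). Angptl4, a secreted PPAR target, had -0.42 (SE 0.07, adjusted p = 0.0566).

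**Figure D3:**
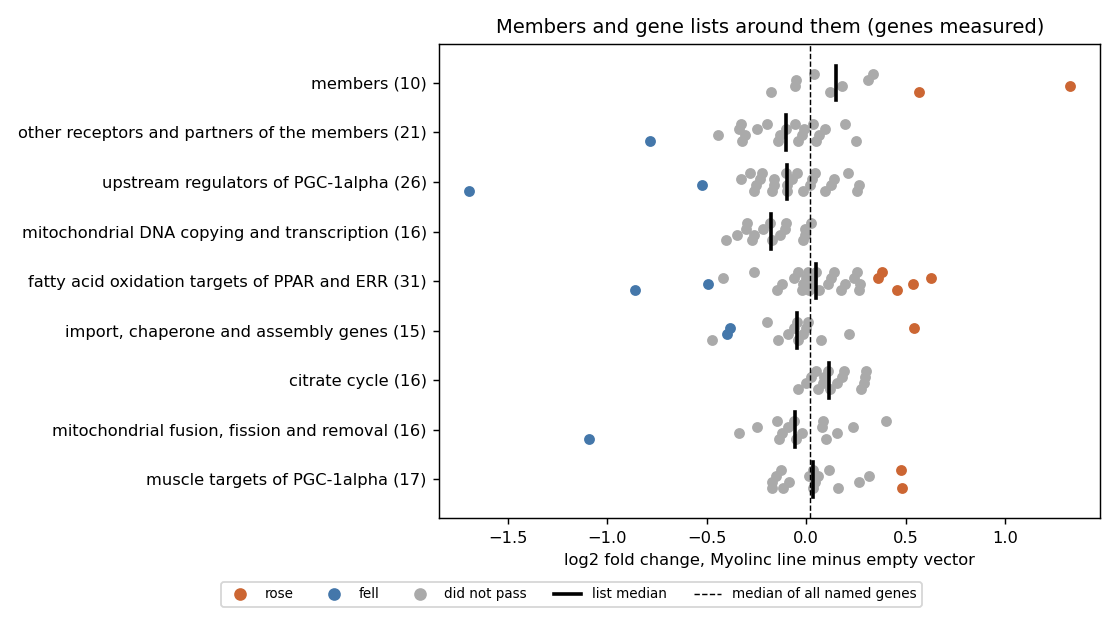
Log2 fold change of every measured gene of the 10 regulators and of 8 lists around them, with the list median as a bar and the median of all named genes, 0.02, as a dashed line. The lists for mitochondrial DNA copying and transcription (median -0.18) and the citrate cycle (median 0.11) hold no gene that passed, and the fatty acid oxidation list holds 5 that rose and 2 that fell.

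None of 16 citrate cycle genes passed in limma, with 5 higher and 0 lower at an unadjusted p under 0.05, where 13.0% of all named genes were higher. With trend and robust estimation 6 were called higher, where 9.55% of all named genes were. An ordinary linear model called 0 of these 16, and 0 of all named genes. The succinate dehydrogenase genes Sdhc and Sdha both had a log2 fold change of 0.30 (SE 0.06, adjusted p = 0.0768 and 0.0778). Of the 16, 14 had a positive log2 fold change, as did 11069 of the 20193 named genes.

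Of 15 import, chaperone and assembly genes 1 rose and 2 fell, where 3.97% of all named genes passed in each direction. At an unadjusted p under 0.05 in limma 2 were higher and 4 lower, where 13.0% and 13.6% of all named genes were. The copper chaperone gene Cox17 rose by 0.54 (SE 0.06, adjusted p = 0.0294), the import cochaperone gene Tomm34 fell by 0.38 (SE 0.06, adjusted p = 0.0454) and Sco1, for a copper protein of complex IV assembly, fell by 0.40 (SE 0.07, adjusted p = 0.0493). Of 17 muscle targets of PGC-1alpha 2 rose, 0 fell and 15 did not pass, beside the same 3.97% in each direction. At an unadjusted p under 0.05 in limma 3 were higher and 1 lower, beside the same 13.0% and 13.6%. Their median log2 fold change was 0.03, with 11 positive and 6 negative. Atp5o, for an ATP synthase subunit, rose by 0.48 (SE 0.06, adjusted p = 0.0319). Cox7a1, for the muscle form of a complex IV subunit, rose by 0.48 (SE 0.07, adjusted p = 0.0388), while Fndc5 had 0.32 (SE 0.08, adjusted p = 0.119). Cox17 and Atp5o lie on chromosome 16, and with the chromosome medians removed their log2 fold changes were 0.39 (adjusted p = 0.0543) and 0.33 (adjusted p = 0.0641).

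Of 16 genes for mitochondrial fusion, fission and removal 1 fell and 0 rose, with 2 lower and 2 higher at an unadjusted p under 0.05 in limma, beside 13.6% and 13.0% of all named genes. Bnip3, a mitophagy receptor gene, read 10.84 and 10.81 on the empty vector arrays and 9.81 and 9.66 on the Myolinc arrays, and fell by 1.09 (SE 0.08, adjusted p = 0.0153). Pink1, a kinase gene of mitophagy, had 0.40 (SE 0.07, adjusted p = 0.0504), and Phb, for a scaffold of the inner membrane, had -0.34 (SE 0.06, adjusted p = 0.0515).

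**Figure D4:**
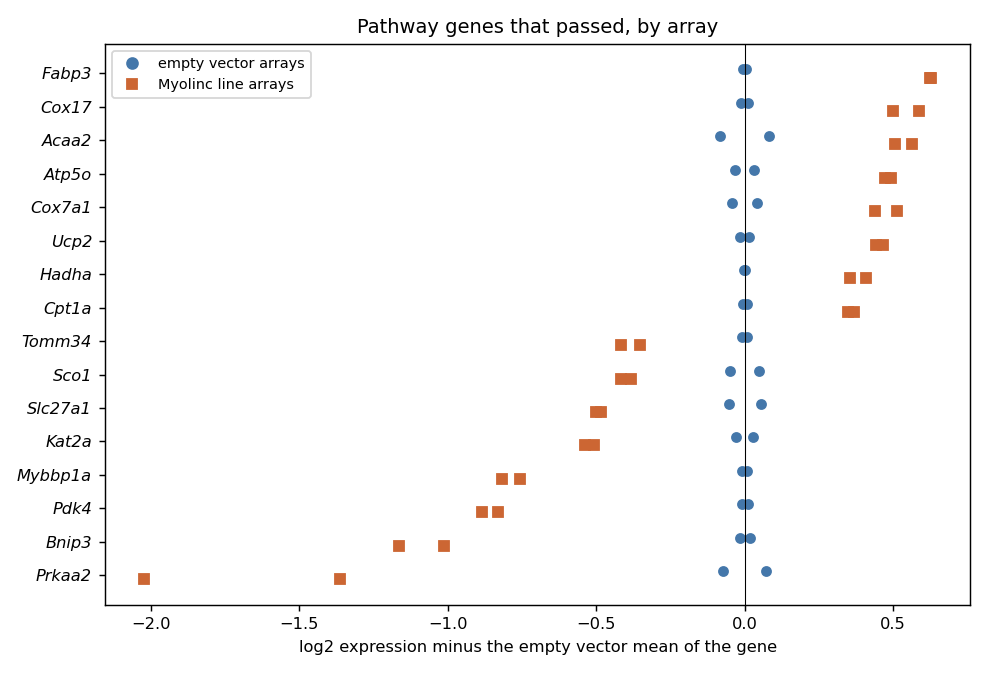
Log2 expression of the 16 pathway genes that passed, each array minus the empty vector mean of the gene. The Myolinc arrays of Prkaa2 lie furthest below, Bnip3, Pdk4 and Mybbp1a follow, and Fabp3 lies highest at 0.63.

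Both calls were lost when either empty vector array was left out, and held when either Myolinc array was. The calls among the named genes at large also depended on which group lost an array. Each omission leaves 1 array in a group, which is assumed to vary as the other group does. With an array left out the log2 fold change of Ppargc1a lay between 1.21 and 1.44 and that of Ppargc1b between 0.53 and 0.60. Of the genes that did not pass, the log2 fold change ranged with an array left out from 0.02 to 0.34 for Esrrg, from 0.02 to 0.22 for Tfam and from -0.24 to -0.11 for Tfb2m. With the probe sets of the lowest numbers kept in the limma fit, the adjusted p was 0.0512 for Ppargc1a and 0.0614 for Ppargc1b. In the authors' deposited table the log2 fold change of Ppargc1a is 1.326 with an unadjusted p = 0.0005. That of Ppargc1b is 0.565 with an unadjusted p = 0.00127. The authors' p-values lie within 8.13e-05 of the unadjusted limma p of the fit just given, so they are not a separate result.

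**Figure D5:**
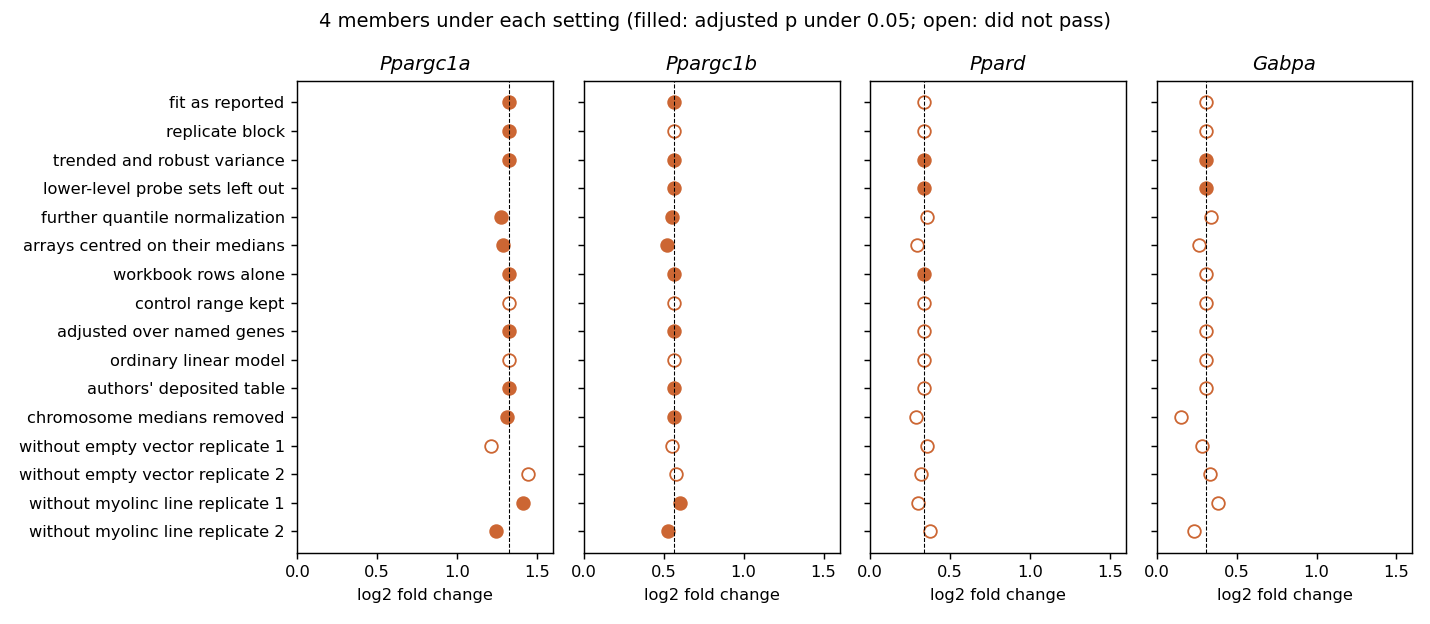
Log2 fold change of Ppargc1a, Ppargc1b, Ppard and Gabpa under the reported fit and 15 other settings, filled where the adjusted p was under 0.05. Ppargc1a passes in 10 of the 14 other settings that include it and Ppargc1b in 10 of 15, Ppard in 3 and Gabpa in 2.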

How the data were processed

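Expression in C2C12 cells was measured on 4 Affymetrix arrays, 2 per group. What the authors deposited are log2 expression values from RMA, and the submitters' processing notes name RMA and limma without versions. For the array annotation and genome build, the sources used here give nothing. Per the file headers, a second deposited table by the authors lists each gene's log2 fold change with a p-value. That p-value lies within 8.13e-05 of an unadjusted limma p fitted here on all rows.

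Of 35556 probe sets, the 6616 numbered below the first with a gene symbol were taken as array controls and left out. The other 28940 were fitted without a filter in limma 3.58.1 (R 4.3.3; lmFit, eBayes, two-sided, threshold 0.05), with 2 residual and 2.19 prior degrees of freedom. Standard errors are moderated. An exact permutation test of 2 arrays against 2 cannot go below 0.333 and was not used. The fit was tested on simulated data in which few probe sets changed. It recovered 12% of log2 changes of 0.5, 92% of those of 1 and 100% of those of 2. A gene that did not pass is therefore not shown to be unchanged. Chromosomes, current symbols and promoters came from RefSeq (GRCm38.p6), which matched 19457 of 20193 symbols. Figures used matplotlib 3.10.9.

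The 10 genes, the lists, the tests and the other settings were chosen with earlier results of these data known. From each list the genes that passed were named, up to 6 by smallest p, and where fewer than 3 passed the list was filled to 3 by smallest p; 1 gene so chosen is not reported here. Ncor1, Angptl4, Gabpb1, Pparg, Rxra, Esrrb, Prkaa1, Sirt1, Polrmt and Cpt1a, and the marker genes, were named after their values were seen. Marker lists covered myoblasts, myotubes, adipocytes, brown adipocytes, macrophages and leukocytes, endothelium and proliferation. The other settings changed the replicate block, variance model, filter, normalization, rows fitted, adjustment, threshold, chromosome medians and arrays included. The level of Myolinc was not analysed here.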

Additional observations from a re-analysis of the deposited data

How the results depend on the processing

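The log2 fold changes of the 10 genes kept their sign in 164 of 168 values under other settings. The exceptions were those of Esrra with arrays centred on their medians (-0.001), with chromosome medians removed (-0.021), without empty vector replicate 2 (-0.008) and without Myolinc replicate 1 (-0.022). With an array left out, Esrra ranged from -0.022 to 0.102. The 28 pathway genes named by rule or as passing kept their sign in 476 of 476 values. In both counts, settings that change only the block, variance model, filter, rows fitted, adjustment or threshold leave the log2 fold change as it is. Those values could not turn, so the counts overstate how far the signs were tested. Of the 10 genes, 2 rose as reported. The count was 1 with a replicate block, 4 with trend and robust estimation, 0 with the control range kept, 0 with an ordinary linear model, 0 at an adjusted p under 0.01, and 0 to 2 with an array left out. At an unadjusted p under 0.05, 3 or 4 were higher and 0 or 1 lower in each of these fits.

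Of the pathway genes 8 rose and 8 fell as reported. With trend and robust estimation 24 rose and 36 fell, without probe sets below the median level 26 and 32, with the control range 0 and 3, with an ordinary linear model 0 and 0 (59 at an unadjusted p under 0.05), by the authors' deposited p-values adjusted here 4 and 4, and with chromosome medians removed 4 and 5. At an adjusted p under 0.01 the counts were 0 and 0, and at 0.1 they were 15 and 22. With centred arrays 3 rose, and with the workbook's genes alone 19 fell. With an array left out 0 to 3 rose and 0 to 6 fell. Of all named genes 1604 passed. The number was 4209 with trend and robust estimation, 4196 without probe sets below the median level, 2490 with the workbook's genes alone, 287 with the control range, 0 with an ordinary linear model (4577 at an unadjusted p under 0.05), 887 by the authors' p-values, 90 at 0.01 and 3069 at 0.1. With an array left out it was 0 to 1468, and it was 0 without empty vector replicate 1 or 2, with 3639 and 3322 at an unadjusted p under 0.05. The cause was not tested. Dropping probe sets below the median level removed Ppargc1a and Ppara.

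The labels number the replicates 1 and 2 in both groups and name nothing that same-numbered arrays share. Their deviations correlated at 0.215 across probe sets, and replicate 2 minus replicate 1 had the same sign in both groups for 10 of the 10 genes. With 2 pairs this is a hint from the data, and pairing is not established. With the replicate block Ppargc1a passed (adjusted p = 0.0431) and Ppargc1b did not (0.0657), 0 pathway genes rose and 0 fell in limma (56 at an unadjusted p under 0.05), and 136 named genes passed.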

Other observations

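The mitochondrial genome, which TFAM and TFB2M serve, has 8 named genes in the files, a set looked at only after the values were known. ND6, for a complex I subunit and the gene known to be read from the other strand than the rest, read 9.16 and 9.20 on the empty vector arrays and 9.86 and 9.75 on the Myolinc arrays. It rose by 0.63 (SE 0.07, adjusted p = 0.0266, limma). The other 7 had log2 fold changes from 0.02 (ND4L) to 0.12 (ND1) and did not pass. All 8 were positive, as were 11069 of the 20193 named genes. Whether ND6 differed from the rest was not tested.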
